A study of Homo sapiens with 8 samples.

Results

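The genes described are those of the ZNF family, human genes named ZNF and a number, that were expressed in the lymphoma line WSU-DLCL2. A gene was taken where its symbol was ZNF followed only by digits and its level averaged at least 2 FPKM (fragments per kilobase of gene model, scaled to the library's total) over both control DMSO libraries. Of 60592 gene rows, 479 carried such a symbol and 215 of these reached the level, while 264 lay under it, 25 of them at 0 in all 8 libraries. Just inside the limit were ZNF224 (2.03 FPKM in control DMSO), ZNF792 (2.05), ZNF607 (2.05) and ZNF446 (2.06), and just outside it were ZNF559 (1.98), ZNF652 (1.95), ZNF490 (1.94) and ZNF30 (1.94). The control DMSO level chose the genes, so comparisons with control DMSO, and the calls in them, are given as description. The comparisons read as tests are those among the other 3 groups, for which control DMSO adds only to the common estimate of spread.

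WSU-DLCL2 is a cell line from a human large B-cell lymphoma of the diffuse kind, and by the series' title and design the study asks how raised FDX1 alters its expression profile. The 4 groups held 2 libraries each: FDX1-overexpressing cells with elesclomol (FDX1-OE ES), the same cells with the solvent (FDX1-OE DMSO), control cells with elesclomol (control ES) and control cells with the solvent (control DMSO). Elesclomol (ES) was used at 15 nM, all cultures were harvested at 48 h, and the genotype of the control cells is labelled WT. The labels do not give the construct or promoter behind FDX1, whether the overexpressing cells are 1 clone, or whether a group's libraries are from separate cultures, so p-values measure only the spread between these libraries, which may be technical. FDX1 itself, the mitochondrial ferredoxin, had 60.7 and 59.4 FPKM in FDX1-OE ES, 59.8 and 56 in FDX1-OE DMSO, 9.88 and 10 in control ES, and 10.8 and 10.4 in control DMSO, as labelled.

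Most ZNF proteins carry arrays of C2H2 zinc fingers, short loops that hold a zinc ion between 2 cysteines and 2 histidines and that read DNA. A large subfamily, grouped in clusters on chromosome 19, adds a KRAB domain, which recruits the corepressor TRIM28 and through it the histone methyltransferase SETDB1 and HP1 proteins, and this machinery is best known for silencing transposable elements. Other ZNF proteins lack KRAB and serve as transcription factors, RNA-binding proteins or factors of ribosome assembly. Elesclomol is a copper ionophore, and FDX1 is known to reduce the copper that it carries into mitochondria.

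The FDX1-OE ES libraries stood apart from the others. Their FPKM summed to 408018 and 403024, against 445716 to 451027 in the other 6, and mitochondrially encoded mRNAs took 14.7% and 11.9% of the FPKM, against 16.9% to 17.6%. Genes at 1 FPKM or more numbered 11868 and 12047 in FDX1-OE ES and 10815 to 11320 elsewhere. The median absolute difference between both libraries of a group over the ZNF genes was 0.15 on the log2 scale in FDX1-OE ES and 0.09 to 0.10 in the other groups. Of 8 B cell and germinal centre markers none was under 1 FPKM in all libraries, with a summed level of 1466 to 1509 FPKM in FDX1-OE ES and 1612 to 1652 elsewhere. Of 8 T and NK cell markers, CD2, CD3D, CD3G and KLRD1 were at 0 throughout, and their sum was 0.761 to 0.812 FPKM in FDX1-OE ES and 0.048 to 0.227 elsewhere. Epithelial and fibroblast markers, all 6 under 1 FPKM, summed to 0.734 to 0.884 FPKM in FDX1-OE ES and 0.111 to 0.367 elsewhere. Of 6 myeloid markers, 4 were under 1 FPKM in every library, and their sum was 4.01 and 5.97 FPKM in FDX1-OE ES, 1.84 and 2.38 in FDX1-OE DMSO, 3.62 and 4.60 in control ES, and 1.7 and 1.82 in control DMSO. The part of these library differences in the ZNF results was not tested, and in bulk RNA a loss of cells of one kind and less RNA per cell cannot be told apart.

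ZNF genes were expressed at modest levels. Their median was 6.23 and 5.98 FPKM in the FDX1-OE ES libraries, 4.41 and 4.37 in FDX1-OE DMSO, 4.87 and 5.07 in control ES, and 4.47 and 4.67 in control DMSO. Summed over the 215 genes, they took 0.460% and 0.468% of all FPKM in FDX1-OE ES and 0.342% to 0.373% in the other 6 libraries. In control DMSO 96 genes lay between 2 and 4 FPKM, 70 between 4 and 8, 29 between 8 and 16, and 20 at 16 or over. The 5 highest in control DMSO were ZNF207 (79.5 ± 3.31 FPKM, SD, n = 2), ZNF593 (53.1 ± 1.14), ZNF598 (41.7 ± 0.212), ZNF318 (39.4 ± 2.26) and ZNF384 (35.3 ± 1.62). These are spread over different roles: ZNF207 (BuGZ) binds spindle microtubules and the checkpoint protein BUB3, ZNF598 is the ubiquitin ligase of collided ribosomes, and ZNF384 is a transcription factor known from gene fusions in B-cell acute leukaemia. ZNF207 and ZNF593 did not overlap with each other in level in any group, whereas the control DMSO means of ZNF598 and ZNF318 differed by about the SD of ZNF318.

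In the values as deposited, most of these genes were higher with elesclomol in FDX1-overexpressing cells. Of the 215 ZNF genes, 128 rose and 11 fell in FDX1-OE ES against FDX1-OE DMSO at a limma adjusted p under 0.05. These are 59.5% and 5.12%, where 47.1% of all 12063 genes tested rose and 13.7% fell. The fold change was above 0 in 187 of the 215, and its median on the log2(FPKM + 1) scale was 0.36, with quartiles of 0.14 and 0.59 and a range of -1.11 to 1.60. Over all genes tested the median was 0.25, and over the 9302 other genes at 2 FPKM or more in control DMSO it was 0.18, with 43.1% higher and 16.9% lower.

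The all-gene shift depends on how the libraries are scaled. Rescaling by median ratios brought the all-gene median to 0.00, and the ZNF genes then had 61 higher, 25 lower and a median of 0.13. With equal FPKM totals these values were 0.37 for all genes, and 153 higher, 5 lower and 0.47 for the ZNF genes. Quantile normalisation brought all genes to -0.01 and the ZNF genes to 46 higher, 42 lower and a median of 0.02. Thus the share of higher genes among ZNF genes called was 92.1% as deposited, 96.8% with equal totals, 70.9% with median ratios and 52.3% after quantile normalisation, beside 77.5%, 86.6%, 48.3% and 48.7% for all genes called. Relative to the all-gene median, the ZNF median stood 0.11 higher as deposited, 0.10 with equal totals, 0.13 with median ratios and 0.03 after quantile normalisation.

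Set against other genes of like level, the ZNF genes had medians close to theirs below 8 FPKM, a higher one between 8 and 16 FPKM and a lower one above. Between 2 and 4 FPKM in control DMSO, 64 of 96 ZNF genes rose and none fell, with a median of 0.41, and of 1348 other genes 53.5% rose and 5.34% fell, with a median of 0.37. Between 4 and 8 FPKM, 38 of 70 ZNF genes rose and 4 fell, with a median of 0.31, and of 1769 other genes 55.3% rose and 6.22% fell, with a median of 0.34. Between 8 and 16 FPKM, 20 of 29 ZNF genes rose and none fell, with a median of 0.44, and of 2144 other genes 49.6% rose and 9.79% fell, with a median of 0.25. At 16 FPKM or over, 6 of 20 ZNF genes rose and 7 fell (30% and 35%), with a median of -0.09, and of 4041 other genes 30.8% rose and 29.3% fell, with a median of 0.02. Taking each ZNF gene against the median of its level bin, the median difference was 0.04. The SD between replicate libraries' ZNF medians was 0.030, but it is not the error of that difference, which was not estimated. No test was made of these differences between groups of genes.

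**Figure D1:**
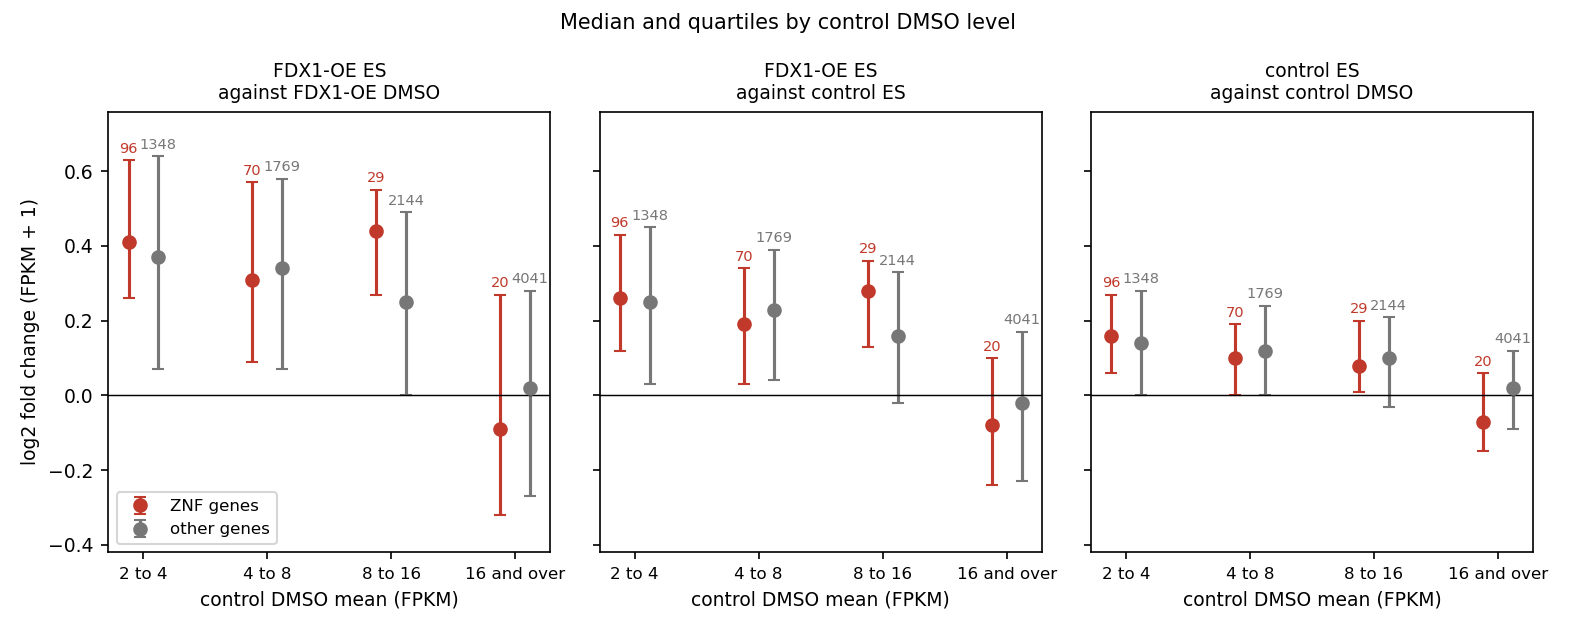
Median log2 fold change (points) and quartiles (bars) of ZNF genes and of other genes, in 4 ranges of control DMSO level, for 3 comparisons; the numbers above the bars count genes. In FDX1-OE ES against FDX1-OE DMSO the ZNF medians are 0.41, 0.31, 0.44 and -0.09 from the lowest to the highest range, and the quartiles of ZNF and other genes overlap in each range.

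The annotated proteins divide the 215 genes by structure. A search of the GENCODE 29 translations for C2H2 fingers and for a KRAB pattern placed 108 in a class with KRAB and fingers, 89 with at least 3 fingers and no KRAB, 17 with fewer than 3 fingers and no KRAB, and 1, ZNF738, with KRAB and no finger. No KRAB here means no match to that pattern in the longest coding sequence of the gene. KRAB domains that differ more from the pattern may be missed, so the classes without KRAB may hold some KRAB genes. Of the 108 KRAB genes, 74 rose (68.5%) and 1, ZNF783, fell in FDX1-OE ES against FDX1-OE DMSO, with a median of 0.45. Over all genes tested 47.1% rose and 13.7% fell, with a median of 0.25. Of the 89 genes with fingers and no KRAB, 46 rose and 6 fell, with a median of 0.28. Of the 17 with fewer fingers, 7 rose and 4 fell, with a median of 0.12. Under median-ratio scaling the KRAB median was 0.21, with 34 higher and 4 lower, that of the class with fingers and no KRAB was 0.03, and that of the class with fewer fingers turned to -0.14. After quantile normalisation the KRAB median was 0.05, with 21 higher and 11 lower, and the medians of the classes without KRAB were -0.09 and, with fewer fingers, -0.13. Of all genes tested, 25.4% were higher and 27.2% lower under median-ratio scaling, and 23.1% and 24.3% after quantile normalisation. After quantile normalisation the share of KRAB genes called higher thus lay below that of all genes.

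The classes also differed in level, and no KRAB gene reached 16 FPKM in control DMSO. Within 2 to 4 FPKM, 47 of 69 KRAB genes rose (median 0.49), beside 14 of 23 genes with fingers and no KRAB (median 0.32). Within 4 to 8 FPKM the counts were 23 of 33 (median 0.41) and 12 of 32 (median 0.13), and within 8 to 16 FPKM they were 4 of 6 (median 0.39) and 16 of 22 (median 0.45). Of these 2 classes the KRAB genes thus had the higher median between 2 and 8 FPKM and not between 8 and 16 FPKM. Among other genes, not ZNF, 53.5% rose within 2 to 4 FPKM (median 0.37) and 55.3% within 4 to 8 FPKM (median 0.34). Within 8 to 16 FPKM 49.6% of them rose (median 0.25). Gene length moved with the change as well: across the 215 genes the rank correlation of the fold change with exon length was 0.15 and with level was -0.28, and across 9266 other genes these were 0.24 and -0.38. For genes with at least 4856 exon bases, the KRAB and other-gene medians were 0.51 and 0.44 within 2 to 4 FPKM. Within 4 to 8 FPKM they were 0.44 and 0.41. For shorter genes the medians were 0.42 and 0.29 within 2 to 4 FPKM, and 0.40 and 0.26 within 4 to 8 FPKM.

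Chromosome 19 held 83 of the 215 genes, 61 of them KRAB genes, chromosome 7 held 22 and chromosome 16 held 20. Of the chromosome 19 genes, 47 rose and 2 fell in FDX1-OE ES against FDX1-OE DMSO (56.6% and 2.41%), with a median of 0.37. Of the 132 genes elsewhere 81 rose and 9 fell (61.4% and 6.82%), with a median of 0.36. Among all genes tested 47.1% rose and 13.7% fell. Among KRAB genes alone, 41 of 61 on chromosome 19 rose (median 0.45), as did 33 of 47 on other chromosomes (median 0.41). The size of the change thus differed little between the chromosome 19 clusters and the rest.

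ZNF107, a KRAB gene of chromosome 7 with 16 fingers by the search, had the largest rise of all 215 genes. It had 15.1 and 13.7 FPKM in FDX1-OE ES, 4.15 and 3.99 in FDX1-OE DMSO, 6 and 6.37 in control ES, and 4.08 and 4.15 in control DMSO. Both FDX1-OE ES libraries lay above all others, control ES came next without overlap, and both DMSO groups overlapped. The ratio of FDX1-OE ES to FDX1-OE DMSO was 3.54 in FPKM, and the log2 fold change was 1.60 (SE 0.09, adjusted p = 9.29e-06).

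The relatives ZNF90, ZNF85 and ZNF100 of ZNF107 on chromosome 19 were also among the 10 largest rises, and their promoters resemble that of ZNF107. ZNF90 had 6.01 and 6.55 FPKM in FDX1-OE ES, 2.4 and 2.49 in FDX1-OE DMSO, 3.5 and 3.77 in control ES, and 2.43 and 2.61 in control DMSO. ZNF85 had 7.3 and 6.25 FPKM in FDX1-OE ES, 2.52 and 3.03 in FDX1-OE DMSO, 2.98 and 3.97 in control ES, and 3.08 and 3 in control DMSO. ZNF100 had 6.14 and 5.05 FPKM in FDX1-OE ES, 2.23 and 2.34 in FDX1-OE DMSO, 3.16 and 3.31 in control ES, and 2.16 and 2.35 in control DMSO. For all of them the FDX1-OE ES libraries were the highest of the 8, and the control ES libraries of ZNF90 and ZNF100, but not those of ZNF85, lay clear of both DMSO groups. Between FDX1-OE ES and FDX1-OE DMSO the log2 fold change was 1.08 for ZNF90 (SE 0.09, adjusted p = 6.59e-05), 1.04 for ZNF85 (SE 0.13, adjusted p = 0.000353) and 1.00 for ZNF100 (SE 0.11, adjusted p = 0.00016). These genes arose by duplication, and reads shared between near-identical copies may have been split or lost in the authors' counting, so their levels are uncertain.

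The 200 bases before the annotated start of these genes, and of ZNF593, which had the largest fall, are shown because the rising genes share most of their letters while ZNF593 does not. They come from RefSeq on GRCh38.p14 and are read on the gene's strand, from chr7:64665933-64666132 (plus strand) for ZNF107, chr19:20923051-20923250 (plus) for ZNF85, chr19:20077800-20077999 (plus) for ZNF90, chr19:21767580-21767779 (minus) for ZNF100 and chr1:26169708-26169907 (plus) for ZNF593, each just upstream of its gene. The expression files were made on hg19 and carry no coordinates. Capitals mark the letters CCAATCA, a form of the CCAAT box that the factor NF-Y is known to bind.
ZNF107: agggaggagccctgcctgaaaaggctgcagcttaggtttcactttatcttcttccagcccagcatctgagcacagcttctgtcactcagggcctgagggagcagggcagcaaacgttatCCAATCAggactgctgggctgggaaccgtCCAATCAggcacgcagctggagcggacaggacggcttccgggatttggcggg
ZNF85: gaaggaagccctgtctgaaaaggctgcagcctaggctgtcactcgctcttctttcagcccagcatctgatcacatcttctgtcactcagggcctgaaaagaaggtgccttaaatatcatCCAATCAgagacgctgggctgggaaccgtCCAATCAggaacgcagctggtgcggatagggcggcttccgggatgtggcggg
ZNF90: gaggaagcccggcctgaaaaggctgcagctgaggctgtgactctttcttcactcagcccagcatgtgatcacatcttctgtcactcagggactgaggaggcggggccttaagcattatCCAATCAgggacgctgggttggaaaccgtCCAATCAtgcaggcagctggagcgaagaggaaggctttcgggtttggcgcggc
ZNF100: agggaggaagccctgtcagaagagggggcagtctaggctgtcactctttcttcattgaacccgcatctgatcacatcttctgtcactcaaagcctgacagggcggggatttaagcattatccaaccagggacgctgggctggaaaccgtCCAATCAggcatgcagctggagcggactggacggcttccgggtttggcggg
ZNF593: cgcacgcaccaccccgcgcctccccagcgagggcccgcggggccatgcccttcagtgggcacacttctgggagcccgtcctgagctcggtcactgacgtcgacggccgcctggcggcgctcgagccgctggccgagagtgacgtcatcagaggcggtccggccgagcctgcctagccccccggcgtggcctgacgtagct

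Aligned with each other, the windows of ZNF107, ZNF85, ZNF90 and ZNF100 were identical at 80.5% to 86% of their bases, while each of them matched that of ZNF593 at 52% to 53.5%, which is also near the median of 53.5% between ZNF107 and the other KRAB genes. Counted back from the start, CCAATCA lay at -81 to -75 and -52 to -46 in both ZNF107 and ZNF85, at -82 to -76 and -53 to -47 in ZNF90, and once, at -51 to -45, in ZNF100. The window of ZNF593 held none. RefSeq windows were found for 187 of the 215 genes.

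Among those 187, 18 genes had a window at least 70% identical to that of ZNF107, of which 12 lie on chromosome 19, 5 on chromosome 7 and 1, ZNF519, on chromosome 18. This group was drawn around ZNF107 after its rise was known and gets no test. Of the 18, 15 rose and none fell in FDX1-OE ES against FDX1-OE DMSO, where 47.1% of all genes tested rose and 13.7% fell. Of other genes, not ZNF, 53.5% rose and 5.34% fell at 2 to 4 FPKM in control DMSO, and 55.3% and 6.22% at 4 to 8 FPKM. The median of the 18 was 0.59 and their range 0.14 to 1.60. Without ZNF107 these values were 14 of 17 and 0.58, and over the other 78 KRAB genes with a window 50 rose and 1 fell, with a median of 0.42. Under median-ratio scaling the 18 genes had 8 higher, none lower and a median of 0.38, beside 0.18 for the other KRAB genes. After quantile normalisation they had 6 higher, none lower and 0.19, beside 0.04. Of all genes tested, 25.4% were higher and 27.2% lower under median-ratio scaling, and 23.1% and 24.3% after quantile normalisation. As deposited, those of the 18 not called were ZNF92 (0.40), ZNF726 (0.17) and ZNF430 (0.14). ZNF93, known to repress LINE-1 elements, rose by 0.85 (SE 0.15, adjusted p = 0.00147).

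**Figure D2:**
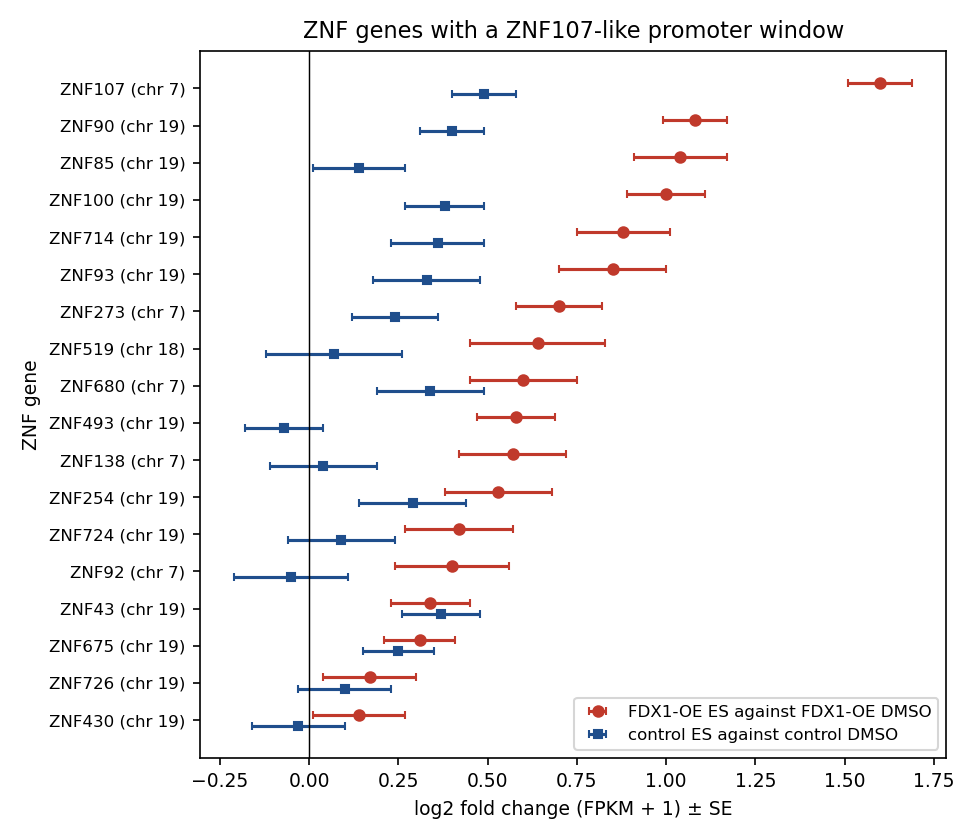
Log2 fold change with its SE for the 18 ZNF genes whose promoter window is at least 70% identical to that of ZNF107, in FDX1-OE ES against FDX1-OE DMSO (circles) and in control ES against control DMSO (squares), ordered by the circles. ZNF107 leads at 1.60 and 0.49, and for 17 of the 18 genes the circle lies to the right of the square.

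CCAATCA, searched on both strands, was found in the 200-base window of 42 of 187 ZNF genes (22.5%) and of 33 of 95 KRAB genes (34.7%), against 7.28% of 27305 genes in the RefSeq table. Those 27305 were not limited to genes tested here or of like level. Their windows had a median G and C content of 58.8%, beside 64% for ZNF genes and 61% for KRAB genes. Windows that resemble each other, as those around ZNF107 do, were each counted, and no test was made of these shares. It was present in 28 of 111 ZNF genes that rose in FDX1-OE ES against FDX1-OE DMSO (25.2%), in 0 of 9 that fell, and in 14 of 67 that were not called (20.9%). In none of the 42 ZNF genes did it share a base with another motif searched. The core of the metal response element, TGCACNC or TGCGCNC on either strand, which the zinc-sensing factor MTF1 binds, was found in 35.3% of ZNF genes and 25% of all genes. It was present in 40 of 111 ZNF genes that rose (36%), 5 of 9 that fell (55.6%) and 21 of 67 not called (31.3%). The median G and C content of these windows was 63.5%, 69.5% and 64% in that order, and its part in the shares was not tested. The antioxidant element core TGACNNNGC was found in 11.8% of ZNF genes and 11.3% of all genes, the interferon element core in 2.14% and 2.97%, the C/EBP-ATF element core TGATGNAA in 0.535% and 3.2%, and the ZNF143 motif core in 4.81% and 1.14%. These are matches of letters, not measured binding.

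The other genes among the 10 largest rises lie outside that group. ZNF10, whose KRAB domain is the one widely fused to dCas9 for gene repression, had 8.28 and 8.55 FPKM in FDX1-OE ES, 2.64 and 2.47 in FDX1-OE DMSO, 4.25 and 4.69 in control ES, and 2.91 and 2.59 in control DMSO. Its groups formed 3 steps without overlap, FDX1-OE ES above control ES and both DMSO groups below, and its log2 fold change in FDX1-OE ES against FDX1-OE DMSO was 1.40 (SE 0.10, adjusted p = 2.35e-05). ZNF875 had 12.8 and 14.7 FPKM in FDX1-OE ES, 5.51 and 6.35 in FDX1-OE DMSO, 8.09 and 8.19 in control ES, and 5.79 and 5.83 in control DMSO, with the same order of groups. Its log2 fold change was 1.09 (SE 0.10, adjusted p = 6.98e-05).

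ZNF718 showed another order of groups. It had 7.91 and 6.34 FPKM in FDX1-OE ES, 2.77 and 2.86 in FDX1-OE DMSO, 2.88 and 3.81 in control ES, and 3.06 and 3.24 in control DMSO. Its FDX1-OE ES libraries stood well apart, FDX1-OE DMSO lay just under both control groups, these overlapped, and the log2 fold change was 1.09 (SE 0.13, adjusted p = 0.000283). ZNF362, which has fingers and no KRAB, had 6.84 and 7.6 FPKM in FDX1-OE ES, 2.6 and 3.37 in FDX1-OE DMSO, 4.86 and 4.37 in control ES, and 3.35 and 3.21 in control DMSO, and rose by 1.05 (SE 0.12, adjusted p = 0.00018). The KRAB genes ZNF41 (0.92, adjusted p = 0.000322) and ZNF852 (0.92, adjusted p = 0.000695) complete the 10, so that 9 of the 10 were KRAB genes. ZNF83, which has 14 fingers and no KRAB by the search, came next, at 0.92 as well after rounding.

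The largest fall was that of ZNF593, a small nucleolar protein whose yeast relative Bud20 assists export of the large ribosomal subunit. It had 24.6 and 26.9 FPKM in FDX1-OE ES, 56.3 and 57.1 in FDX1-OE DMSO, 45.8 and 45.2 in control ES, and 52.3 and 53.9 in control DMSO. FDX1-OE ES lay at less than 0.5 times the FDX1-OE DMSO level, at a ratio of 0.454, control ES lay a little under both DMSO groups without overlap, and the log2 fold change was -1.11 (SE 0.06, adjusted p = 1.24e-05). ZNF581, a short gene with 4 fingers, had 21.3 and 18.2 FPKM in FDX1-OE ES, 32.4 and 34 in FDX1-OE DMSO, 29.5 and 30.6 in control ES, and 32.6 and 34.3 in control DMSO. Again FDX1-OE ES was lowest, and the log2 fold change was -0.73 (SE 0.08, adjusted p = 0.000196).

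Several of the genes that fell act in translation or ribosome assembly by earlier work on them. ZNF598, the ligase that ubiquitinates small-subunit proteins where ribosomes collide, had 28.8 and 32.5 FPKM in FDX1-OE ES, 38.5 and 39.3 in FDX1-OE DMSO, 34.5 and 36.1 in control ES, and 41.8 and 41.5 in control DMSO, and fell by 0.34 on the log2 scale (SE 0.07, adjusted p = 0.00407). ZNF622, whose yeast relative Rei1 acts in late maturation of the large subunit, had 17.9 and 17.6 FPKM in FDX1-OE ES, 21.2 and 23.3 in FDX1-OE DMSO, 19.2 and 21.1 in control ES, and 21.4 and 21.4 in control DMSO, and fell by 0.31 (SE 0.08, adjusted p = 0.00807). For both genes the FDX1-OE ES libraries lay below those of every other group. ZNF593, ZNF598 and ZNF622 were picked out for their roles after their values were seen. All of them lay at 16 FPKM or over in control DMSO, where 29.3% of other genes and 7 of 20 ZNF genes fell. Whether their roles bear on the falls was not tested.

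The other genes that fell in FDX1-OE ES against FDX1-OE DMSO changed by -0.49 to -0.32. ZNF692 had 11.8 and 13.0 FPKM in FDX1-OE ES, 16.6 and 18.5 in FDX1-OE DMSO, 18.2 and 16.7 in control ES, and 16.7 and 17 in control DMSO, a log2 fold change of -0.47 (SE 0.08, adjusted p = 0.00172) with FDX1-OE ES clear of the other groups, which overlapped. ZNF628 changed by -0.49 (adjusted p = 0.00229), ZNF654 by -0.41 (adjusted p = 0.0437), ZNF668 by -0.36 (adjusted p = 0.0152), ZNF706 by -0.32 (adjusted p = 0.0161) and ZNF783 by -0.32 (adjusted p = 0.0138). ZNF207, the spindle protein and the highest ZNF gene, had 52.9 and 57.3 FPKM in FDX1-OE ES, 72.6 and 66.5 in FDX1-OE DMSO, 63.9 and 55.6 in control ES, and 77.1 and 81.8 in control DMSO, a log2 fold change of -0.33 (SE 0.09, adjusted p = 0.0101). Its ES libraries overlapped between FDX1-OE and control cells and lay below all DMSO libraries. The calls of ZNF654, ZNF668, ZNF706, ZNF783 and ZNF207 were each lost under some settings, at an adjusted p of up to 0.234 for ZNF654, 0.114 for ZNF668, 0.124 for ZNF706, 0.0853 for ZNF783 and 0.0906 for ZNF207.

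**Figure D3:**
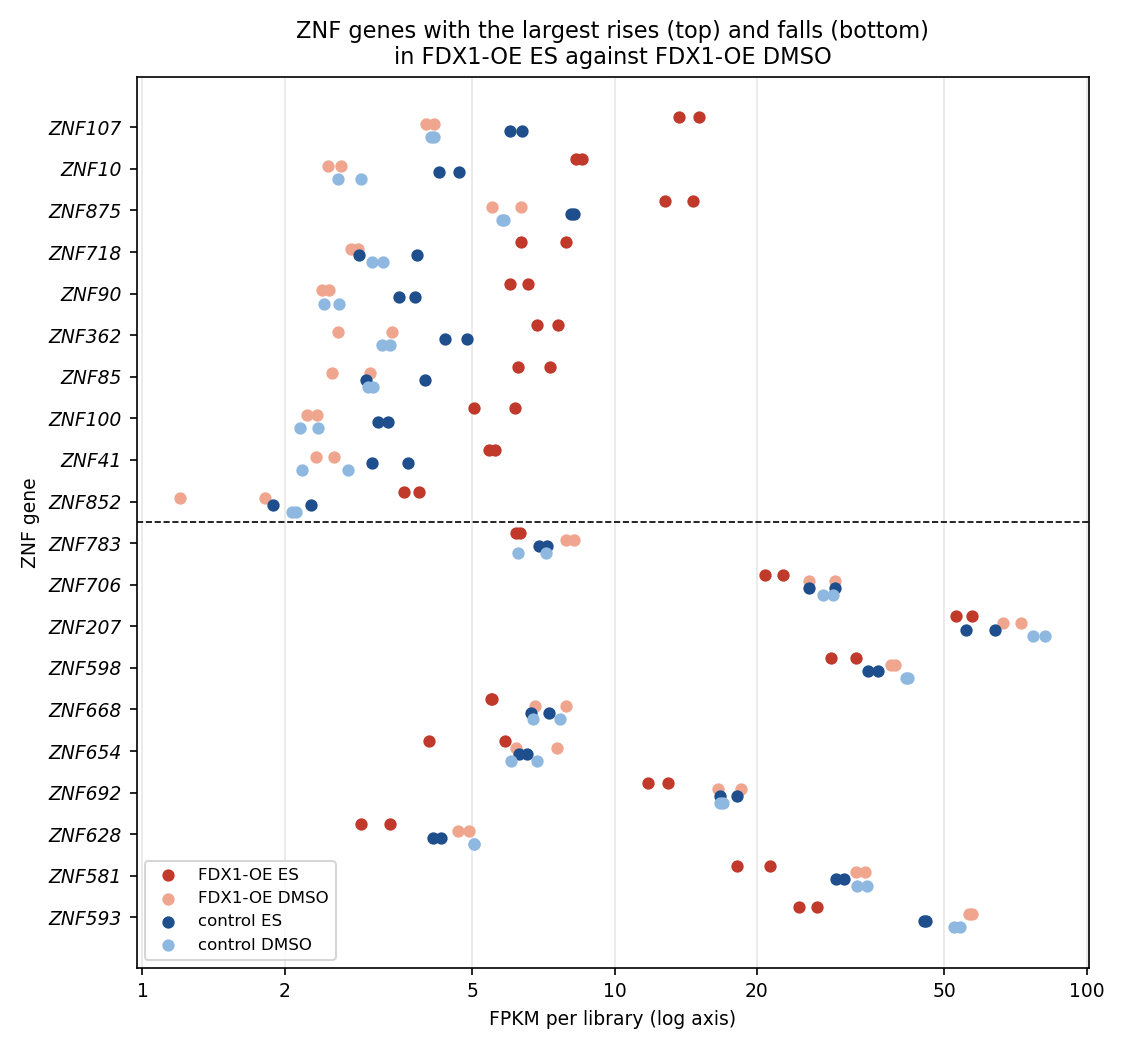
FPKM of each library on a log axis for the 10 ZNF genes with the largest rise (above the dashed line) and the 10 with the largest fall in FDX1-OE ES against FDX1-OE DMSO. Each point is 1 library and colours mark the 4 groups; the FDX1-OE ES points of ZNF107 lie at 15.1 and 13.7 FPKM and those of ZNF593 at 24.6 and 26.9 FPKM.

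Of 76 ZNF genes listed for a known role, whatever their level, 70 were tested, and in FDX1-OE ES against FDX1-OE DMSO 35 rose and 8 fell (50% and 11.4%, near the 47.1% and 13.7% of all genes tested), with a median of 0.30, which was 0.03 under median-ratio scaling and turned to -0.05 after quantile normalisation. ZNF146, a protein made almost wholly of fingers, had 35.1 and 30.9 FPKM in FDX1-OE ES, 19.9 and 19 in FDX1-OE DMSO, 22.5 and 23.7 in control ES, and 19.7 and 20.1 in control DMSO. ZNF664 had 42.3 and 40.4 FPKM in FDX1-OE ES, 25.5 and 25 in FDX1-OE DMSO, 28.9 and 30.2 in control ES, and 25.8 and 25.4 in control DMSO. Both genes had FDX1-OE ES above every other library, with log2 fold changes of 0.73 (SE 0.08, adjusted p = 0.000148) for ZNF146 and 0.69 (SE 0.06, adjusted p = 7.27e-05) for ZNF664.

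Among the genes of that list that rose, picked for their described partners after their values were seen, ZNF217, an amplified gene of breast cancer that binds CtBP and CoREST, had 10.2 and 8.86 FPKM in FDX1-OE ES, 6.09 and 5.65 in FDX1-OE DMSO, 6.49 and 6.06 in control ES, and 5.95 and 5.75 in control DMSO, and rose by 0.61 (SE 0.09, adjusted p = 0.000789). ZNF274, known to bring SETDB1 to the ends of other ZNF genes, had 6.81 and 8.32 FPKM in FDX1-OE ES, 5.05 and 4.81 in FDX1-OE DMSO, 6.27 and 5.91 in control ES, and 4.92 and 5.1 in control DMSO, and rose by 0.53 (SE 0.10, adjusted p = 0.00271). In both genes FDX1-OE ES lay above every other library. ZNF638, which acts with the HUSH complex on unintegrated retroviral DNA, rose by 0.46 (adjusted p = 0.00265), and ZNF644, a partner of the methyltransferases EHMT1 and EHMT2, by 0.62 (adjusted p = 0.000511). ZNF592 rose by 0.70 (adjusted p = 0.000127) and ZNF687 by 0.27 (adjusted p = 0.0222), both known as partners of ZMYND8.

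ZNF410, an activator known mainly for its target CHD4, had 18.9 and 17.1 FPKM in FDX1-OE ES, 12.7 and 11.2 in FDX1-OE DMSO, 13.9 and 14.4 in control ES, and 12.3 and 12.1 in control DMSO, and rose by 0.55 (SE 0.09, adjusted p = 0.000816). CHD4 itself had 84 and 81 FPKM in FDX1-OE ES and 89.5 and 87.8 in FDX1-OE DMSO, a log2 fold change of -0.10 (SE 0.05, adjusted p = 0.126). ZNF384 had 36.7 and 42.4 FPKM in FDX1-OE ES, 31.3 and 31.5 in FDX1-OE DMSO, 32.3 and 32.4 in control ES, and 36.5 and 34.2 in control DMSO, and rose by 0.32 (SE 0.08, adjusted p = 0.00807), with 1 control DMSO library close to the lower FDX1-OE ES library. ZNF318, whose mouse counterpart is needed for IgD in B cells, had 37.2 and 34.2 FPKM in FDX1-OE ES, 39.8 and 38.6 in FDX1-OE DMSO, 34.6 and 35.5 in control ES, and 40.9 and 37.8 in control DMSO, with a log2 fold change of -0.13 (SE 0.07, adjusted p = 0.133) that did not pass the test. ZNF143, an activator of many promoters, had 6.71 and 7.35 FPKM in FDX1-OE ES and 6.38 and 6.67 in FDX1-OE DMSO, a change of 0.09 (SE 0.09, adjusted p = 0.405) that did not pass either.

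Under elesclomol, the FDX1-overexpressing cells also differed from the control cells. Of the 215 genes, 75 were higher and 9 lower in FDX1-OE ES against control ES at an adjusted p under 0.05, where 31.1% of all genes tested were higher and 10.4% lower. The median log2 fold change was 0.23, against 0.16 over all genes tested and 0.11 over the other genes at 2 FPKM or more. Against genes of like level the difference was 0.00. Among ZNF genes called, the share that was higher was 89.3% as deposited, 97.5% with equal totals, 69.2% with median ratios and 47.8% after quantile normalisation, where the median turned to -0.01. This comparison shares its FDX1-OE ES libraries with the preceding one. With control ES replicate 1 left out 33 genes were higher and 4 lower, and with control ES replicate 2 left out 47 were higher and 3 lower.

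Of the 108 KRAB genes, 39 were higher (36.1%) and none lower in FDX1-OE ES, with a median of 0.26. Of the 89 genes with fingers and no KRAB, 31 were higher (34.8%) and 7 lower (7.87%), with a median of 0.19. These shares of higher genes lay near those of other genes: 35.7% at 2 to 4 FPKM in control DMSO, 38% at 4 to 8 FPKM, and 31.1% of all genes tested. The 5 largest differences were those of ZNF107 (1.10, SE 0.09, adjusted p = 0.000166), ZNF718 (0.91, adjusted p = 0.00192), ZNF85 (0.80, adjusted p = 0.00309), ZNF10 (0.78, adjusted p = 0.000918) and ZNF875 (0.69, adjusted p = 0.00161), whose libraries, given above, did not overlap between FDX1-OE ES and control ES. Of the 18 genes with a ZNF107-like window, 9 were higher and none lower, where 31.1% of all genes tested were higher and 10.4% lower. Of other genes, 3.49% were lower at 2 to 4 FPKM and 4.13% at 4 to 8 FPKM. The median of the 18 was 0.40, and without ZNF107 the values were 8 of 17 and 0.35. Lower in FDX1-OE ES were ZNF593 (-0.80, SE 0.06, adjusted p = 0.00018), ZNF581 (-0.59, adjusted p = 0.00165), ZNF692 (-0.47, adjusted p = 0.0041), ZNF628 (-0.34, adjusted p = 0.0213) and ZNF706 (-0.32, adjusted p = 0.0243). The calls of ZNF628 and ZNF706 were lost under 6 of 16 settings each, at an adjusted p of up to 0.0955 and 0.145.

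In control cells the change with elesclomol was smaller, and it is a description, since control DMSO chose the genes. In control ES against control DMSO, 6 of the 215 genes were called higher and 1 lower, where 6.74% of all genes tested were called higher and 1.00% lower, 7.74% in all. The median log2 fold change was 0.11 over the ZNF genes and 0.09 over all genes tested. The genes called higher were ZNF10 (0.54), ZNF600 (0.52), ZNF749 (0.51), ZNF107 (0.49), ZNF875 (0.43) and ZNF90 (0.40), all with KRAB, and the gene called lower was ZNF207 (-0.41). ZNF600 had 7.03 and 5.37 FPKM in FDX1-OE ES, 4.27 and 3.88 in FDX1-OE DMSO, 5.74 and 5.76 in control ES, and 3.57 and 3.87 in control DMSO, so that both ES groups overlapped and lay above both DMSO groups. None of the 7 calls was kept when a library of control ES or of control DMSO was left out, leaving out either FDX1-OE DMSO library gave 2 higher and none lower, and leaving out either FDX1-OE ES library gave 20 higher and 3 lower.

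The elesclomol effects in FDX1-OE and in control cells, which share no library, had the same sign for 179 of the 215 ZNF genes and for 9632 of all 12063 genes tested. Both were positive for 157 ZNF genes and both negative for 22. The effect was greater in FDX1-OE cells for 173 of the 215, and for 8098 of the 12063. Across the 215 genes, which are not independent replicates, the Pearson correlation between both effects was 0.64, beside 0.71 across all 12063 genes tested. The all-gene medians are positive in both comparisons as deposited and 0.00 under median-ratio scaling. The 6 genes called higher and the gene called lower in control cells were called the same way in FDX1-OE cells. By the interaction term, the effect in FDX1-OE cells minus that in control cells, 34 ZNF genes were called higher and 3 lower, where 13.9% of all genes tested were called higher and 5.06% lower. This too is a description, since control DMSO enters it. Leaving out FDX1-OE DMSO replicate 1 or 2 gave 4 or 8 higher, control DMSO replicate 1 or 2 gave 7 or 8, control ES replicate 1 or 2 gave 4 or 14, and FDX1-OE ES replicate 2 gave 52.

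**Figure D4:**
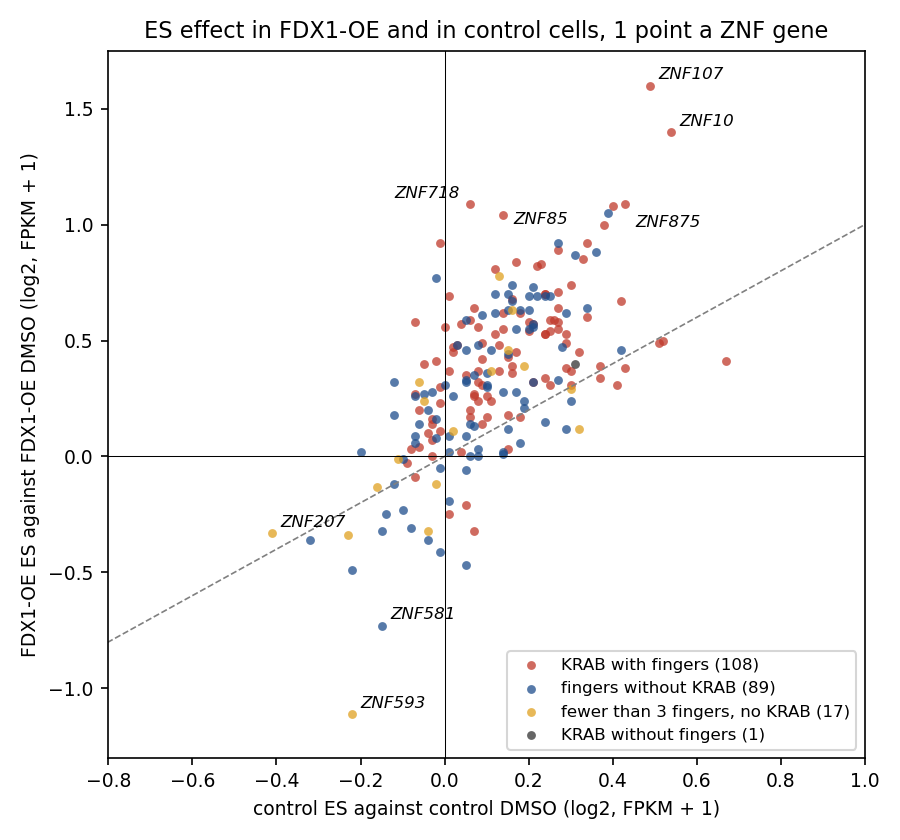
Log2 fold change of each of the 215 ZNF genes in FDX1-OE ES against FDX1-OE DMSO (vertical axis) and in control ES against control DMSO (horizontal axis), coloured by protein class, with the dashed line marking equal change. Most points lie above the line, ZNF107 at 1.60 and 0.49 is at the top right, and ZNF593 at -1.11 and -0.22 is the lowest.

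Overexpression of FDX1 without elesclomol left no ZNF gene called. In FDX1-OE DMSO against control DMSO, limma called 0 of the 215 genes in either direction, and 6 had an unadjusted p under 0.05. Of all genes tested 0.00829% were called higher, which is FDX1 alone, and 0% lower. The ZNF median was -0.02, and the single changes ran between -0.31 and 0.35.

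The machinery that works with KRAB proteins did not move as a block. Of 35 corepressor genes tested, 12 rose and 5 fell in FDX1-OE ES against FDX1-OE DMSO (34.3% and 14.3%, where 47.1% and 13.7% of all genes tested did), with a median of 0.07. TRIM28, the scaffold itself, had 148 and 175 FPKM in FDX1-OE ES, 164 and 170 in FDX1-OE DMSO, 173 and 166 in control ES, and 184 and 185 in control DMSO, and SETDB1, the methyltransferase, had 13.3 and 14.3 FPKM in FDX1-OE ES, 13.1 and 13 in FDX1-OE DMSO, 13 and 13 in control ES, and 12.4 and 12.6 in control DMSO. Neither passed the test, with log2 fold changes of -0.05 (SE 0.08, adjusted p = 0.59) and 0.07 (SE 0.07, adjusted p = 0.411). Among those that rose were the HP1 gene CBX5 (0.76, SE 0.07, adjusted p = 8.20e-05), the chromatin remodeller ATRX (0.73, adjusted p = 0.000306), the NuRD subunit GATAD2B (0.56, adjusted p = 0.000678) and the histone chaperone RBBP4 (0.38, adjusted p = 0.000841). Those that fell were the maintenance methyltransferase DNMT1 (-0.47, SE 0.05, adjusted p = 0.0002), the HP1 gene CBX3 (-0.39, adjusted p = 0.0188), ATF7IP2 (-0.39, adjusted p = 0.0047), the demethylase KDM1A (-0.25, adjusted p = 0.0131) and the methyl-CpG binder MBD2 (-0.21, adjusted p = 0.0465). Under median-ratio scaling 3 rose and 15 fell, with a median of -0.20, and with equal totals 17 rose and 2 fell. The balance of this list moved with the scaling, as did that of all genes. Of all genes tested, 25.4% rose and 27.2% fell under median-ratio scaling, and 58.6% and 9.06% with equal totals. The share of the list that rose lay below that of all genes as deposited and in both of these settings.

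Against control ES, 4 of the 35 corepressor genes were higher in FDX1-OE ES and 3 lower (11.4% and 8.57%, where 31.1% and 10.4% of all genes tested were), with CBX5 at 0.50 and ATRX at 0.44. Of the 4 genes of the HUSH complex and its effector MORC2, which silence retroelements with histone methylation, TASOR rose by 0.50 (SE 0.07, adjusted p = 0.000537) and MPHOSPH8 by 0.27 (SE 0.08, adjusted p = 0.0151) in FDX1-OE ES against FDX1-OE DMSO. PPHLN1 (-0.14, adjusted p = 0.134) and MORC2 (0.02, adjusted p = 0.853) did not pass the test. The median of the 4 was 0.15 as deposited and turned to -0.12 under median-ratio scaling and -0.10 after quantile normalisation. TASOR had 27.4 and 25.1 FPKM in FDX1-OE ES, 18.7 and 17.8 in FDX1-OE DMSO, 19.2 and 18.9 in control ES, and 17.9 and 17.6 in control DMSO, with FDX1-OE ES clear of the rest.

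Other zinc finger families had positive medians as deposited, as all genes tested did (0.25, with 47.1% higher and 13.7% lower). They had no limit on control DMSO level, only the filter of the fit, which a gene high only in FDX1-OE ES can pass. Low genes may thus enter as rises, and no comparison at like level was made. Tested were 13 of 21 ZSCAN rows, 11 of 18 ZFP rows, 32 of 41 ZBTB rows, 6 of 18 KLF rows and 30 of 81 ZNF rows with a letter. Of 13 SCAN-domain ZSCAN genes tested, 9 rose in FDX1-OE ES against FDX1-OE DMSO (median 0.43), 6 of 7 ZKSCAN genes with SCAN and KRAB domains (median 0.65) and 8 of 11 ZFP genes (median 0.61), with none lower in these 3 families. Of 32 BTB-domain ZBTB genes 18 rose and 2 fell (median 0.34), of 30 ZNF genes with a letter after the number 18 rose and none fell (median 0.53), and of 6 KLF genes 3 rose and 1 fell (median 0.17). After quantile normalisation the medians were 0.00 for ZSCAN, 0.29 for ZKSCAN, 0.20 for ZFP, 0.09 for the lettered ZNF genes, -0.04 for ZBTB and -0.14 for KLF, the direction of ZBTB and KLF being reversed, that of KLF also under median-ratio scaling (-0.09). ZKSCAN1 had 7.63 and 7.04 FPKM in FDX1-OE ES, 4.52 and 4.11 in FDX1-OE DMSO, 4.98 and 5.14 in control ES, and 3.92 and 4.32 in control DMSO, a log2 fold change of 0.65 (SE 0.09, adjusted p = 0.000577) with FDX1-OE ES clear of the other groups.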

How the data were processed

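Total RNA of 8 WSU-DLCL2 libraries in 4 groups, assigned from the source names, was sequenced. The deposited numbers are treated as FPKM calculated by the authors. No file header states this unit, and it rests on the numbers themselves, which have decimals and differ in their sums between libraries. HISAT2, HTSeq, R 3.2.0 and hg19 are listed in the submitters' processing notes. Absolute depth and strand handling are not given in the sources used here, so counting error cannot be stated, and antisense or overlapping genes may share reads. From the commonest low value, the deepest library had about 1.19 times the depth of the shallowest.

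All calculations used log2(FPKM + 1), a scale that understates changes of low genes. A gene entered the fit with 1 FPKM or more in 2 or more libraries (12063 genes, among them all 215 ZNF genes). One model of the 4 groups over all 8 libraries was made in limma 3.58.1 (R 4.3.3), with the prior variance following the mean, two-sided tests, Benjamini-Hochberg adjustment over every gene and calls at 0.05. It was tested on simulated data. No scaling was added.

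The genes, lists and motifs were chosen with earlier results of these data known. Genes are named by rule: the 5 highest in control DMSO, the 4 nearest to the limit on each side, up to 10 rises and 10 falls among called genes without overlap in FDX1-OE ES against FDX1-OE DMSO, up to 5 each way in the other comparisons, called genes of the known-role list, and the KRAB corepressor and HUSH genes. Genes named outside it for a promoter, a class or a control-cell call were chosen after their values were seen. Symbols of 1059 rows are shared with another row, and none of these is named.

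Like level means the same range of control DMSO FPKM (2 to 4, 4 to 8, 8 to 16, 16 and over). Classes were read from the translated coding sequence in GENCODE 29, a source chosen after seeing the data in place of a protein table, which was not used. A finger was C, 2 to 4 residues, C, 12 residues, H, 3 to 5 residues, H, and KRAB a pattern of 9 fixed letters with at most 3 different (the plan misstated their number). Promoter windows are from RefSeq and were aligned with Biopython 1.88.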

Additional observations from a re-analysis of the deposited data

Results flagged for a closer look

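For 8 ZNF genes the elesclomol effect differed between FDX1-OE and control cells by the interaction term of the limma fit (effect in FDX1-OE cells minus effect in control cells, log2 scale, adjusted over all genes tested). They are the 5 most positive and the 3 negative differences among the 37 ZNF genes called, 34 positive and 3 negative, where 13.9% of all genes tested were called positive and 5.06% negative. Leaving out a single FDX1-OE DMSO, control DMSO or control ES library gave 4 to 14 positive calls, and leaving out FDX1-OE ES replicate 2 gave 52. Control DMSO, which chose the genes, enters this term, so the values are a description. ZNF107 differed by 1.11 (SE 0.12, adjusted p = 0.00209), with an effect of 1.60 in FDX1-OE cells and 0.49 in control cells. ZNF718 differed by 1.03 (SE 0.19, adjusted p = 0.012), with 1.09 and 0.06 in the same order. ZNF852 differed by 0.93 (SE 0.19, adjusted p = 0.0171), and its FDX1-OE DMSO libraries, at 1.20 and 1.82 FPKM, lay under its control DMSO libraries, at 2.12 and 2.07. ZNF85 differed by 0.90 (SE 0.19, adjusted p = 0.0178) and ZNF10 by 0.86 (SE 0.13, adjusted p = 0.00756). On the negative side ZNF593 differed by -0.89 (SE 0.09, adjusted p = 0.00169), with effects of -1.11 and -0.22, ZNF581 by -0.58 (SE 0.12, adjusted p = 0.0157), with -0.73 and -0.15, and ZNF692 by -0.52 (SE 0.12, adjusted p = 0.0225), with -0.47 and 0.05. Over the alternatives the adjusted p reached 0.0179 for ZNF107, 0.0427 for ZNF10 and 0.0163 for ZNF593, and 0.0533 to 0.0927 for the other 5.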

How the results depend on the processing

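The 44 fold changes of the genes named as largest rises or falls kept their sign under all 696 alternatives, and 112 of these ended a call. Known-role, corepressor, HUSH and other family genes were not followed one by one. In FDX1-OE ES against FDX1-OE DMSO the calls ended were those of ZNF207, ZNF654, ZNF668, ZNF706 and ZNF783. Of 327 alternatives for counts, medians and like-level differences, 237 kept the result. The cause of the changes below was not tested.

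In FDX1-OE ES against FDX1-OE DMSO (128 higher, 11 lower, median 0.36), median-ratio scaling gave 61, 25 and 0.13, quantile normalisation 46, 42 and 0.02, and equal totals 153, 5 and 0.47. Array weights gave 7 lower, a pseudocount of 0.1 a median of 0.45, and a limit of 5 FPKM, which leaves 95 genes, 47, 11 and 0.27. Higher calls fell to 57 of the KRAB genes and 33 of those with fingers and no KRAB with array weights. Without the filter on low values they were 56 and 34, where 74 and 46 were called as deposited. Leaving out 1 library gave 89 to 120 higher, 8 to 14 lower and medians of 0.36 to 0.37.

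In FDX1-OE ES against control ES (75, 9, 0.23), median-ratio scaling gave 36, 16 and 0.08, quantile normalisation 22, 24 and -0.01, equal totals 119, 3 and 0.35, array weights 42 and 3, and only the groups compared 47 and 3. Without the filter 5 were lower, a pseudocount of 0.1 gave a median of 0.27, and the 5 FPKM limit 30, 8 and 0.17. Higher without the filter were 29 KRAB genes and 25 with fingers and no KRAB, where 39 and 31 were called as deposited. Leaving out 1 library gave 33 to 77 higher, 3 to 9 lower and medians of 0.20 to 0.24.

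In control ES against control DMSO (6, 1, 0.11), median-ratio scaling gave 2, 3 and 0.02, quantile normalisation 0, 0 and -0.03, and no filter 0 and 0. Array weights gave 25 and 3, only the groups compared 3 lower, and the 5 FPKM limit 1, 1 and 0.06. Leaving out 1 library gave 0 to 20 higher, 0 to 3 lower and medians of 0.09 to 0.13.

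For the interaction (34, 3, 0.24), median-ratio scaling gave 14, 6 and 0.11, quantile normalisation 9, 6 and 0.03, equal totals 78 higher and 0.36, no filter 14 and 1, a pseudocount of 0.1 a median of 0.30, and the 5 FPKM limit 3 lower and 0.20. Leaving out 1 library gave 4 to 52 higher, 1 to 4 lower and medians of 0.21 to 0.29. For FDX1-OE DMSO against control DMSO, leaving out 1 library gave 0 higher, 0 lower and medians of -0.02 to -0.01.

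Samples with the same replicate number did not deviate together (correlations of -0.0499 to 0.0793). With 2 libraries per group this check cannot exclude a pairing, and the labels state none. With the replicate block the ZNF genes had 128 higher and 11 lower in FDX1-OE ES against FDX1-OE DMSO, 72 and 8 against control ES, 3 and 1 in control ES against control DMSO, and 26 and 3 for the interaction.

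Limits are the 2 libraries per group, whose origin is not stated, the wider spread between the FDX1-OE ES libraries, the unknown absolute depth, and the choice of scaling, which moves the all-gene median between -0.01 and 0.37. Near-identical KRAB paralogs may exchange reads.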
